A study of Mus musculus with 12 samples.

Results

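Cdh4, Cdh6, Cdh7, Cdh9, Cdh10, Cdh11, Cdh12, Cdh13, Cdh18 and Cdh20 are 10 cadherin genes of forebrain neuron subtypes. They were taken by gene symbol from the 55335 genes listed in the files, as the classical and type II cadherins other than Cdh8, with Cdh13 added. The tissue was forebrain of mice at postnatal day 1 (P1), profiled by single-nucleus RNA sequencing with split-pool barcoding, with 1 animal per library. There were 8 wild-type (WT) libraries, of which WT 1 to WT 5 were male and WT 6 to WT 8 female, and 4 heterozygous (Het) libraries, of which Het 1 to Het 3 were male and Het 4 female. All animals came from the MYT1L S710fsX line on a C57BL/6 background, in which Het animals carry 1 Myt1l allele with a frameshift in every cell, and WT animals carry none. The animals came from several litters, with no statement of which animal belonged to which, and the study's methods name the prefrontal cortex in 1 place.

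Cadherins are calcium-dependent adhesion proteins that span the membrane, bind a matching or related cadherin on the next cell and link through catenins to actin. Type I members such as R-cadherin (Cdh4) and type II members such as Cdh6, Cdh9 and Cdh10 differ in the part of the first extracellular domain that inserts into the partner, and type II members bind one another in overlapping sets. T-cadherin (Cdh13) is held in the membrane by a lipid anchor and lacks the tail that binds catenins. In the developing forebrain, different cadherins mark different layers, areas and nuclei, and the combination that a neuron carries is known as an adhesion code.

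Nuclei were assigned to 15 classes by marker genes that included no cadherin, so that a cadherin's level did not choose the nuclei in which it was measured. Of 94280 nuclei that passed the filters (54997 WT and 39283 Het, median 1900 unique molecular identifiers, UMIs), 44584 (47.3%) fell into exactly 1 of these classes, and 0 cell barcodes were shared between libraries. In the class names, ExN is an excitatory and InhN an inhibitory neuron. Interneurons are named after their birthplace, the medial (MGE) or caudal (CGE) ganglionic eminence, and striatal projection neurons after their dopamine receptor, D1 or D2. OPCs are oligodendrocyte precursors. Total UMIs per library ranged from 15439429 to 40784144 over all deposited barcodes, and from 9763390 to 24262241 over the kept nuclei. Levels are CPM, the gene's UMIs scaled to a common total, over the summed nuclei of a class in 1 library, and they were compared between classes and genotypes for 1 gene, not between genes, since longer genes and those with more priming sites yield more UMIs. Small classes gave imprecise levels, with 22 to 57 nuclei per library in layer 5 and 30 to 79 among Cajal-Retzius neurons. WT 4 held 8 D1 and 6 D2 nuclei and was not used for these classes. Many nuclei entered their class with only the minimum number of markers, 77.1% in layer 5, 74.5% in CGE and 60.9% in upper-layer neurons, against 16.1% to 49.8% in layer 6, Cajal-Retzius and MGE neurons. D1 nuclei carried a median of 2 D1 markers, with 77.4% at the minimum of 2, and also a median of 2 layer 6 markers. D2 nuclei, of which 77.3% were at the minimum, rested on at least 1 D2 marker beside at least 3 shared striatal markers, and carried a median of 2 of 6 layer 6 markers (Foxp2, which striatal neurons also express, is 1 of these 6). Free RNA can add to low levels, and its part was not tested. Myt1l, a gene of neurons, lay at a WT mean of 244.7 CPM in endothelial nuclei, 223.9 CPM in fibroblasts and 780 CPM in microglia, against 1042 to 2234 CPM in the neuron classes. The allele is a frameshift, so the amount of Myt1l transcript need not follow genotype and was not used to check it. Whether the mutant transcript is kept was not tested. Over all nuclei it was between 1271 and 1614 CPM in WT and between 1538 and 1655 CPM in Het libraries.

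The members lay on 4 chromosomes (GENCODE M21 on GRCm38). Cdh6 (chr15:13028701-13173675, minus strand), Cdh9 (chr15:16728756-16857094), Cdh10 (chr15:18818947-19014236), Cdh12 (chr15:20449265-21589533) and Cdh18 (chr15:22549022-23474418), the last 4 on the plus strand, follow one another on chromosome 15. Cdh20 (chr1:104768529-104995481) and Cdh7 (chr1:109982431-110140157) lie on the plus strand of chromosome 1. Cdh11 (chr8:102632095-102785642, minus strand) and Cdh13 (chr8:118283733-119324921, plus strand) lie on chromosome 8, and Cdh4 (chr2:179442431-179899373, plus strand) on chromosome 2. Cdh12 and Cdh13 are the longest, at 1140.3 kb and 1041.2 kb. All but Cdh6, Cdh7 and Cdh10 overlap other annotated genes, mostly small RNA genes and gene models, and the sources used here do not say whether counting used strand, so reads in these overlaps are uncertain.

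RefSeq start-site windows (GRCm38.p6, 250 bases before to 50 after a start) were found for 7 of the 10 members and held 9 windows, with none for Cdh4, Cdh11 and Cdh13. The windows of Cdh10 (chr15:18820079-18820378), Cdh12 (chr15:21111202-21111501) and Cdh18 (chr15:23036213-23036512) lie inside the genes, downstream of the starts given above. So do the 3 windows of Cdh7, which begin at chr1:109982650, chr1:109983052 and chr1:109983473. The motif counts below do not cover those starts. The windows of Cdh6 and Cdh9 are shown because this pair of chromosome 15 neighbours shared the longest run of bases among the members' windows, 15 bases against 13 for the next pair, and because their highest neuron classes differ, upper-layer neurons for Cdh6 and MGE interneurons for Cdh9. The Cdh6 window spans chr15:13173626-13173925 (minus strand) and the Cdh9 window chr15:16728665-16728964 (plus strand). Both are written 5′ to 3′ along the gene with the shared run in capitals.
Cdh6: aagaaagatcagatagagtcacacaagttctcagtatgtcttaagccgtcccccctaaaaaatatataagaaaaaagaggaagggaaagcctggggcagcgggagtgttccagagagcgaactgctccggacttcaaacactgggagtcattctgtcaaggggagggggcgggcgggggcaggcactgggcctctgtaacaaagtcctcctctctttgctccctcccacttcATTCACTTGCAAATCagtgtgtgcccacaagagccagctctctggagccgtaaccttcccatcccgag
Cdh9: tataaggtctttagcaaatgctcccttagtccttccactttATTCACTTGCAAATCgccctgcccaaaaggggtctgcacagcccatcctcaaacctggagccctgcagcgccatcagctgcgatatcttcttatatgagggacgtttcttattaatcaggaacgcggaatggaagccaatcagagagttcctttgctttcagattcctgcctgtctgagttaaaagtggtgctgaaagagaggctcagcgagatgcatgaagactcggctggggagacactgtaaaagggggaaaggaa
The run starts at position -18 from the Cdh6 start and at -209 from the Cdh9 start, and 2 of 32817 windows of the same length (0.00609%) held it. Of 5 motifs searched on both strands, the core bound by MYT1 family zinc fingers (AAAGTTT) was in 0 of the 9 windows and in 4.74% of all windows. The homeodomain core (TAATTA) was in 1 window, 1 of 3 of Cdh7, against 5.30% of all windows. The octamer (ATGCAAAT, 1.74% of all windows), a T-box core (AGGTGTGA, 1.27%) and a forkhead core (TGTTTAC, 3.65%) were in 0 of the 9. These matches describe letters in short windows and say nothing of binding.

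Each neuron class had its own combination of members by the count used here. A member was counted as on in a neuron class where its WT mean reached at least 50% of its highest neuron class. By this rule every member is on in at least 1 class, and no other gene set was counted beside it, so the combinations are a description. Glial classes did not enter the scaling, so Cdh20 counts as on in upper-layer neurons at 25.9% of its OPC level. By this count 27 of 80 pairs of member and class were on in WT libraries, and the 8 neuron classes had 8 distinct combinations. Upper-layer neurons carried Cdh6, Cdh10, Cdh12, Cdh13 and Cdh20. Layer 6 neurons carried Cdh9, Cdh11, Cdh13 and Cdh18, so that 7 of the 10 members differed from the upper-layer set and only Cdh13 was shared. Layer 5 neurons carried Cdh6, Cdh7, Cdh11 and Cdh13, and Cajal-Retzius neurons, the early-born reelin cells of the cortical surface, carried Cdh4, Cdh6 and Cdh7. MGE interneurons carried Cdh7, Cdh9, Cdh12 and Cdh13, and CGE interneurons Cdh10 and Cdh20, with no member in common. D1 neurons carried Cdh12, Cdh13 and Cdh18, and D2 neurons Cdh11 and Cdh13. The sets closest to each other differed by 2 members (D2 against layer 5 and against layer 6). Several memberships lay close to the limit. With 1 WT library left out at a time, an alternative chosen after seeing the data, at most 2 of 80 pairs changed state, and these were Cdh6 in Cajal-Retzius neurons, Cdh11 in layer 5 and in D1, and Cdh12 in MGE interneurons. In further alternatives chosen after seeing the data, 5 of 80 changed with all deposited barcodes (Cdh6 and Cdh10 in layer 6, Cdh11 in layer 5 and in D1, and Cdh18 in D1), 2 with a stricter gate (Cdh6 in Cajal-Retzius neurons and Cdh12 in MGE interneurons) and 0 with doublets kept. In Het libraries 26 pairs were on, and 73 of 80 had the same state as in WT. The 7 others were Cdh12 in D1 and in MGE interneurons, Cdh11 in D2 and Cdh6 in Cajal-Retzius neurons, which were on in WT only, and Cdh10 in layers 5 and 6 and Cdh18 in Cajal-Retzius neurons, which were on in Het only. Whether these pairs differ between the genotypes is given by the tests further on, not by this count.

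**Figure D1:**
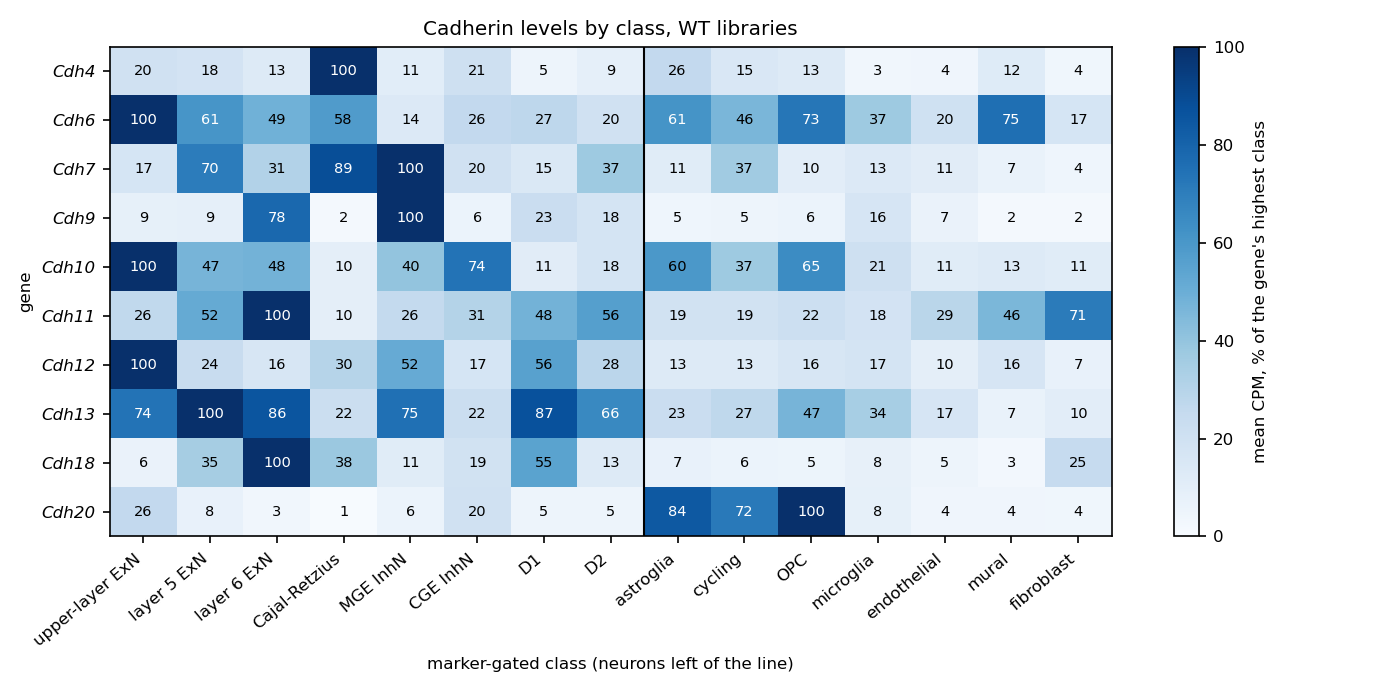
Mean CPM of each cadherin (rows) in each marker-gated class (columns) over the WT libraries, in percent of that gene's highest class, with neuron classes left of the line. Cdh4 stands at 100 in Cajal-Retzius neurons and below 27 elsewhere, Cdh9 is high in MGE interneurons and layer 6, and Cdh20 is highest in OPCs, astroglia and cycling nuclei.

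Cdh4, the type I member, was a gene of Cajal-Retzius neurons. Its level there was 1461 CPM in the lowest, 1690 CPM in the median and 2004 CPM in the highest WT library, and 1577, 1801, 1909 and 1605 CPM in Het 1 to Het 4. All 12 libraries had their highest level in this class, and the WT ranges of this and the next class did not overlap. The WT mean of 1735 CPM ± 176 (SD, n = 8) was 3.83-fold that of astroglia, which followed at 453 CPM ± 115 (SD, n = 8). Astroglia, CGE interneurons (363 CPM) and upper-layer neurons (339.7 CPM) overlapped in range with their neighbours in the order. D2 neurons lay above D1 in 7 of 7 WT libraries, at 155.6 against 82.4 CPM.

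Among the type II members, Cdh6, Cdh10, Cdh12 and Cdh20 had their highest neuronal level in upper-layer neurons. Cdh12 reached 999 CPM in the lowest, 1338 CPM in the median and 1569 CPM in the highest WT library of this class, and 1281, 1509, 1578 and 1084 CPM in Het 1 to Het 4. The genotypes overlapped, and the WT range lay above that of the next class, D1, at 729.7 CPM ± 139.9 (SD, n = 7). D1 and MGE interneurons (676 CPM ± 146.8, n = 8) were not separated, and layer 6 lay at 208 CPM, close to the glial classes.

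Cdh10 was at 784 CPM in the lowest, 903 CPM in the median and 999 CPM in the highest WT library of upper-layer neurons. CGE interneurons came next with 664 CPM ± 133 (SD, n = 8), below upper-layer neurons in 7 of 8 WT libraries, and then OPCs with 578 CPM and astroglia with 533.5 CPM. Its level was low in D1 (98.6 CPM), D2 (157 CPM) and Cajal-Retzius neurons (87.4 CPM), where it did not exceed that of fibroblasts (102 CPM) by more than the spread between libraries.

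Cdh6 was spread over more classes. It was at 132 CPM in the lowest, 245 CPM in the median and 299 CPM in the highest WT library of upper-layer neurons, and at a mean of 141 CPM in layer 5, 134.5 CPM in Cajal-Retzius and 113 CPM in layer 6 neurons. Outside neurons it lay at 175 CPM in mural nuclei, 169 CPM in OPCs and 142.5 CPM in astroglia. No neighbouring classes in its order had separate ranges. MGE interneurons were lowest with 31.4 CPM ± 9.50 (SD, n = 8).

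Cdh20 was mainly a gene of the glial lineage. OPCs held 370 to 489 CPM in WT libraries, astroglia 282 to 437 CPM and cycling nuclei 202 to 479 CPM. Upper-layer neurons followed at 113 CPM ± 21.5 (SD, n = 8), below cycling nuclei in 8 of 8 WT libraries with no overlap of range. CGE interneurons held 86.4 CPM, and Cajal-Retzius neurons 2.89 CPM, with a median of 0 CPM over the WT libraries.

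Cdh9, Cdh11 and Cdh18 were high in layer 6. Cdh18 reached 1143 CPM in the lowest, 1656 CPM in the median and 2215 CPM in the highest WT library of layer 6, and 1773, 1899, 1426 and 1385 CPM in Het 1 to Het 4. The genotypes overlapped fully. D1 neurons came next at 898 CPM ± 159 (SD, n = 7), with no overlap with layer 6, and Cajal-Retzius neurons after them at 621 CPM. Upper-layer neurons, at 103 CPM ± 11.0 (SD, n = 8), did not stand apart from astroglia (116 CPM).

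Cdh11 was at 886 CPM in the lowest, 1064 CPM in the median and 1351 CPM in the highest WT library of layer 6. Fibroblasts came second with 766 CPM ± 207 (SD, n = 8), lower than layer 6 in 7 of 8 WT libraries. D2, layer 5 and D1 neurons followed with 609, 557 and 516 CPM and overlapped in range. Cajal-Retzius neurons had the lowest mean of the 15 classes, 103 CPM.

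Cdh9 had a pair of high classes. MGE interneurons held 467 CPM in the lowest, 605.5 CPM in the median and 733 CPM in the highest WT library, and layer 6 neurons held 363, 458 and 580 CPM. MGE interneurons were higher in 8 of 8 WT libraries, although the ranges overlapped, but in only 1 of 4 Het libraries. The next class, D1, lay at 138 CPM ± 34.4 (SD, n = 7), a 3.40-fold step below layer 6 with no overlap. CGE interneurons held 36.4 CPM and upper-layer neurons 51.1 CPM.

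Cdh7 was highest in interneurons of the MGE, Cajal-Retzius neurons and layer 5. MGE interneurons were at 133 CPM ± 34.8, Cajal-Retzius neurons at 118 CPM ± 45.7 and layer 5 neurons at 93.8 CPM ± 50.5 (SD, n = 8 each), and these 3 classes were not separated. Within libraries, MGE interneurons lay above Cajal-Retzius neurons in only 2 of 8 WT and 2 of 4 Het libraries. Upper-layer neurons held 22.8 CPM, near the 15.2 CPM of astroglia and 17.9 CPM of microglia.

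Cdh13, the lipid-anchored member, was the broadest. It was on in 6 of 8 neuron classes, at WT means of 1480 CPM ± 237 (n = 8) in layer 5, 1293 CPM ± 116 (n = 7) in D1, 1271 CPM ± 170.5 (n = 8) in layer 6, 1115 CPM ± 88.8 (n = 8) in MGE interneurons, 1093 CPM ± 113 (n = 8) in upper-layer neurons and 976 CPM ± 150.5 (n = 7) in D2, each ± SD. Every pair of neighbours among these 6 overlapped in range. The other neuron classes were lower, CGE interneurons at 325.5 CPM ± 50.7 and Cajal-Retzius neurons at 331 CPM ± 237.5 (SD, n = 8 each). The wide spread of the latter came with WT 8, at 882 CPM against 157 to 373 CPM in the other 7 WT libraries.

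**Figure D2:**
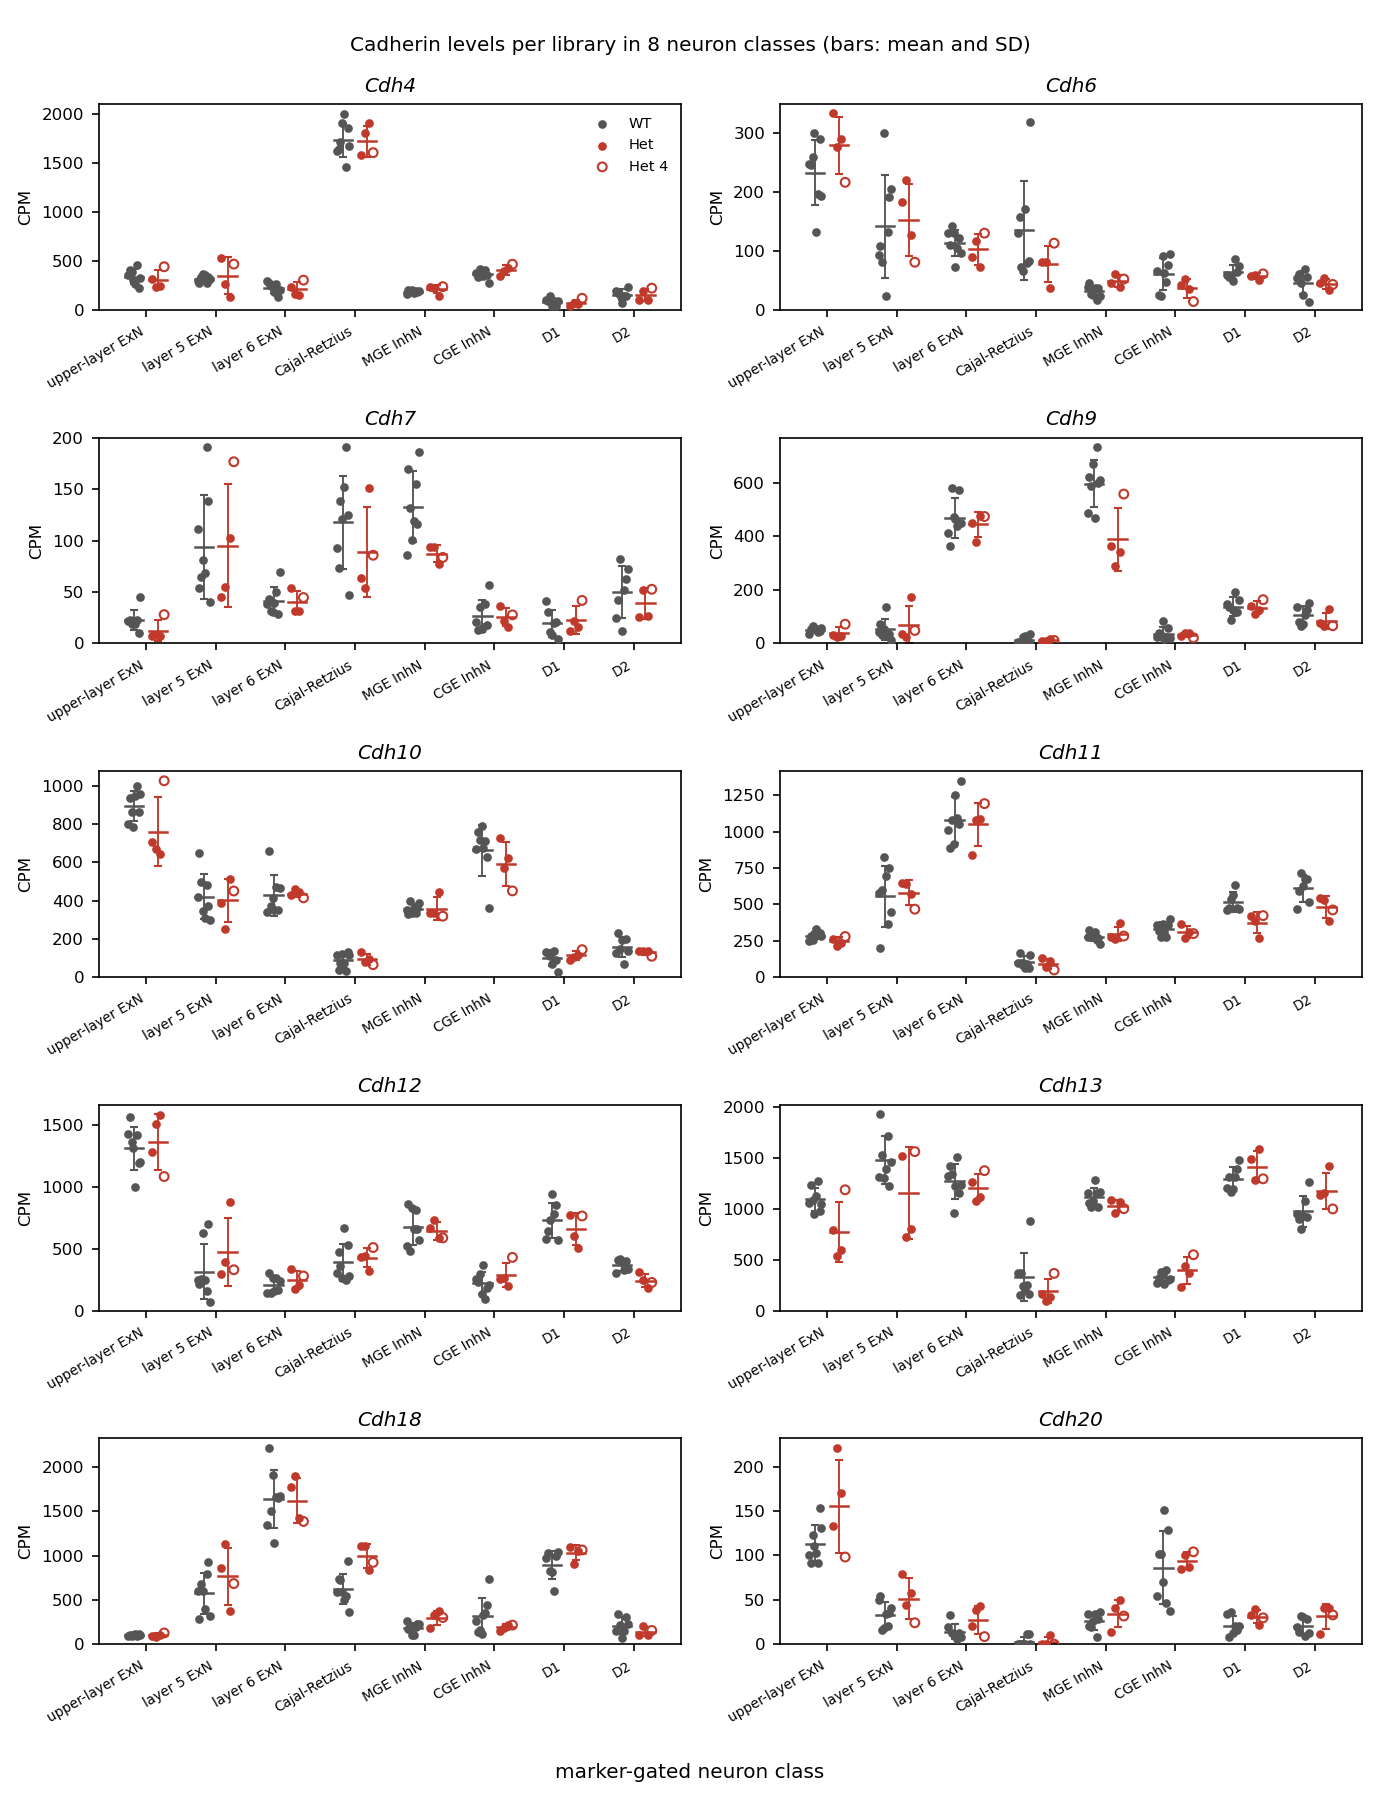
Level of each cadherin (CPM) in each library for the 8 neuron classes, WT in grey and Het in red, with Het 4 as an open circle, and bars for mean and SD. In upper-layer neurons Het 4 lay above Het 1 to Het 3 for Cdh4, Cdh7, Cdh9, Cdh10, Cdh11, Cdh13 and Cdh18 and below them for Cdh6, Cdh12 and Cdh20.

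By a fixed rule, the genes whose mean log2 CPM over the 15 classes followed each member most closely were named, from 14896 genes compared. These correlations describe 15 class means from the same libraries. Cdh12 was followed by Kif26b (Pearson r = 0.943) and Ydjc (0.853), Cdh10 by Sez6l (0.927) and Masp1 (0.896), and Cdh13 by Slc6a15 (0.924) and Syt16 (0.923). Cdh20 was followed by Ptprz1 (0.927), a receptor phosphatase of glial precursors, and Pou3f3 (0.919). Cdh4 went with Epb41l4a (0.867) and Arvcf (0.851), a catenin of the p120 family, Cdh7 with B230112I24Rik (0.864) and Uchl3 (0.852), Cdh6 with Gm37960 (0.869) and Gm44894 (0.843), Cdh18 with Chsy3 (0.845) and Adcy1 (0.807), and Cdh9 with Zfp385b (0.804) and Gm3173 (0.799). Cdh11 went with Gm45257 (0.913), which overlaps Cdh11 on the same strand, and Ssbp3 (0.789). Between members, Cdh9 and Cdh13 (r = 0.75) and Cdh10 and Cdh20 (r = 0.72) were most alike.

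To ask which members separate related classes, 4 contrasts were fitted within libraries by edgeR's quasi-likelihood test with Benjamini-Hochberg (BH) adjustment over all genes, and a gene was called at an adjusted p under 0.05 and a log2 difference of at least 1. The members were chosen as cadherins of neuron subtypes with earlier results of these data known. Their counts beside the share of all genes are therefore a description. In WT libraries 16 of 39 member tests were called, and 9 of the 10 members were called in at least 1 contrast. The exception was Cdh4, which had an adjusted p of 3.482e-05 or less in all 4 (edgeR) but lay under the fold limit, at 0.55, -0.91, -0.94 and 0.56. It passed the limit between D1 and D2 without WT 3 (-1.06), and with a stricter gate there (-1.83) and between MGE and CGE interneurons (-1.01).

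Upper-layer against layer 6 neurons gave 6 called members of 10, where 10.1% of all genes tested were called. Cdh20 (log2 difference 3.09 ± 0.15 SE), Cdh12 (2.67 ± 0.09) and Cdh10 (1.07 ± 0.07) were higher in upper-layer neurons, each in 8 of 8 libraries. Cdh18 (-4.01 ± 0.08), Cdh9 (-3.26 ± 0.08) and Cdh11 (-1.94 ± 0.06) were higher in layer 6, each in 8 of 8 libraries. Their adjusted p ranged from 1.189e-22 for Cdh18 to 1.132e-12 for Cdh10 (edgeR). Cdh6 fell just short of the fold limit at 0.99 ± 0.06. The median absolute log2 difference was 1.51 over the members and 0.205 over all genes. In Het libraries 7 of 10 were called (9.98% of all genes), with Cdh6 (1.41 ± 0.16) and Cdh7 (-1.83 ± 0.29) added and Cdh10 (0.76 ± 0.11) not called.

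MGE against CGE interneurons gave 5 called members of 10 (8.93% of all genes). Cdh9 (4.05 ± 0.16), Cdh7 (2.43 ± 0.19), Cdh13 (1.85 ± 0.10) and Cdh12 (1.58 ± 0.15) were higher in MGE and Cdh20 (-1.68 ± 0.21) in CGE interneurons, each in 8 of 8 WT libraries. Adjusted p lay between 7.588e-21 for Cdh9 and 6.777e-08 for Cdh20 (edgeR). The median absolute log2 difference was 1.26 over the members and 0.237 over all genes. The same members, 5 of 10, were called with the same sign in Het libraries (7.45% of all genes).

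D1 against D2 neurons gave 2 called members of 9 tested (5.38% of all genes), since Cdh20 did not pass the filter on low counts. Cdh18 (2.17 ± 0.12, adjusted p = 5.981e-15, edgeR) and Cdh12 (1.01 ± 0.08, adjusted p = 4.817e-11, edgeR) were higher in D1 in 7 of 7 WT libraries. Cdh12 stood at the fold limit, at 0.98 without WT 5, 0.99 without WT 6, 0.99 without WT 7 and 0.93 with doublets kept. D1 nuclei had a median of 2673 UMIs and D2 nuclei 1866 UMIs, and the part of this in the contrast was not tested. The median absolute log2 difference was 0.589 over the members and 0.181 over all genes. In Het libraries 3 of 10 were called (5.12% of all genes), Cdh18 at 2.85 ± 0.13, Cdh12 at 1.497 ± 0.098 and, higher in D2, Cdh4 at -1.08 ± 0.15. Without Het 2 Cdh4 lay at -0.91, under the limit.

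Excitatory and inhibitory neurons were also compared by general markers, apart from the 15 classes. The excitatory group (12297 WT nuclei) had at least 1 of 4 excitatory markers, such as Slc17a7, and 0 of the 5 inhibitory ones, and the inhibitory group (5474 WT nuclei) at least 2 inhibitory markers, such as Gad1, and 0 excitatory ones. These groups leave out nuclei with too few of these markers, and so do not hold every nucleus of the neuron classes. They gave 3 called members of 10 (11.1% of all genes). Cdh6 (1.24 ± 0.12) and Cdh10 (1.15 ± 0.07) were higher in excitatory and Cdh7 (-1.40 ± 0.10) in inhibitory neurons, each in 8 of 8 WT libraries, with adjusted p from 6.683e-11 to 1.346e-07 (edgeR). The median absolute log2 difference was 0.636 over the members and 0.222 over all genes. In Het libraries 5 of 10 were called (11.4% of all genes), with Cdh12 (1.14 ± 0.10) and Cdh18 (-1.29 ± 0.12) added.

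WT and Het libraries share no animals, and 15 of the 16 WT calls were called with the same sign in Het libraries, which gave 20 calls in 40 tests. Of 39 tests made in both, 4 had opposite signs, none of them called in either genotype. One of these was Cdh18 between MGE and CGE interneurons, at -0.65 ± 0.16 in WT and 0.68 ± 0.14 in Het libraries. A term for the difference between the genotypes, added after seeing the data, called 0 members by edgeR in any of the 4 contrasts. Over all genes it called 0.00814% for upper-layer against layer 6 and 0% for each of the other 3. The smallest adjusted p was that of this Cdh18 difference (1.32 ± 0.26, adjusted p = 0.0691, edgeR), for which DESeq2 gave 1.25 ± 0.36 and an adjusted p of 0.999. DESeq2 called 1 member, Cdh13 between upper-layer and layer 6 neurons (-0.48 ± 0.14, adjusted p = 0.0474), where it called 0.057% of all genes and for which edgeR gave -0.47 ± 0.11 and an adjusted p of 0.128.

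**Figure D3:**
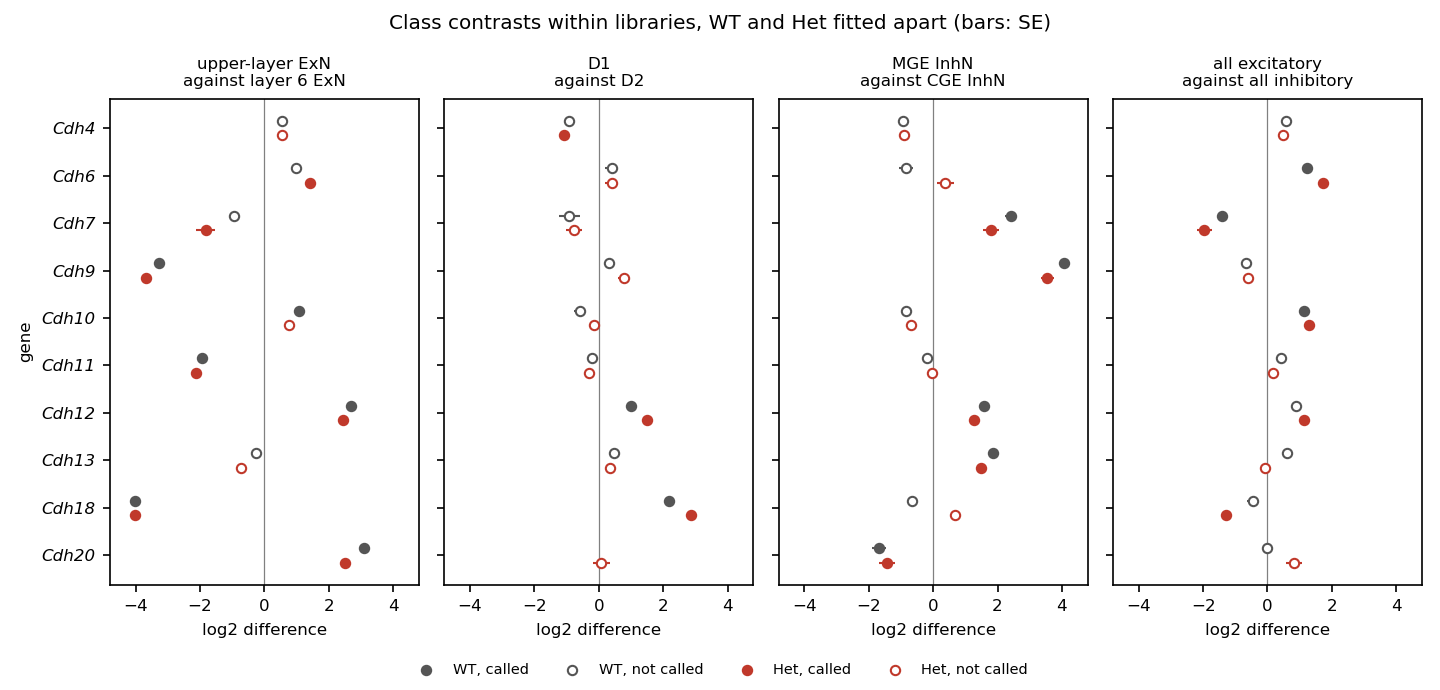
Log2 difference between the named classes (x axis, bars SE) for each cadherin (y axis), with WT libraries in grey and Het libraries in red, filled where called. Cdh18 and Cdh9 lie far to the layer 6 side of the upper-layer contrast, and Cdh9 far to the MGE side of the interneuron contrast, in both genotypes.

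Other adhesion genes, the nearest relatives and partners of cadherins, were called in 3 of the 4 WT contrasts. Their lists were chosen with earlier results known, and the counts are set beside the percentages above. Over all lists edgeR called 6 of 24 tested genes between upper-layer and layer 6 neurons and 2 of 19 between MGE and CGE interneurons. Between excitatory and inhibitory neurons it called 1 of 24. The counts for interneurons and for excitatory against inhibitory neurons are near or under the share of all genes, and so no result about these lists. Between upper-layer and layer 6 neurons, 2 of 3 tested genes among the other type II cadherins were called, Cdh8 (2.09 ± 0.06) on the upper-layer side and Cdh22 (-1.56 ± 0.27) on the layer 6 side. Nectin3 (2.85 ± 0.08) and Nectin1 (1.98 ± 0.17), 2 of 4 tested nectin genes, were higher in upper-layer neurons. Among delta protocadherins 1 of 9 was called, Pcdh8 (2.37 ± 0.23), and among catenins 1 of 7, Ctnnd2 (-1.26 ± 0.05), shares near the 10.1% of all genes and so no result about these lists. Between MGE and CGE interneurons 1 of 7 tested delta protocadherins, Pcdh19 (1.25 ± 0.16), and 1 of 3 nectin genes, Nectin1 (-1.01 ± 0.26), were called, the latter not by DESeq2, beside 8.93% of all genes and 0 of 6 catenins, 0 of 2 other type II cadherins and 0 of 1 other type I cadherin. Between inhibitory and excitatory neurons 1 of 3 other type II cadherins was called, Cdh22 (-2.40 ± 0.17, higher in inhibitory neurons). Beside it stood 0 of 7 catenins, 0 of 4 nectin genes and 0 of 9 delta protocadherins. D1 against D2 gave 0 calls of 16 in these lists by edgeR and by DESeq2, with Cdh8 nearest at 0.99 ± 0.07. At an unadjusted p under 0.05 by edgeR there were 9 of 16, against 1270 of 4905 genes tested. Of the other type I cadherins only Cdh2 passed the filter, at -0.70 ± 0.05 between upper-layer and layer 6 neurons and between -0.01 and 0.50 in the other 3 contrasts, with 0 calls.

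WT and Het libraries were then compared, class by class, by edgeR's quasi-likelihood test with BH adjustment and a minimum log2 difference of 0.2. Of 150 pairs of member and class, 113 could be tested and 37 did not pass the filter on low counts. edgeR called 0 of the 113 (0.00524% of all genes tested over the 15 classes, 4 of 76317), and DESeq2 called 1 (0.059% of all genes). At an unadjusted p under 0.05 there were 21 (18.6%, against 6.58% of all genes), 12 of them lower in Het libraries. These tests repeat the same members over classes of the same libraries. The members were chosen with earlier results of these data known, so these counts are a description. All 10 members were tested in upper-layer, layer 6, MGE and D1 neurons and in astroglia, 9 in D2, and 1 to 8 in the other classes. The median log2 difference over the 113 tests was -0.05, with 65 lower in Het libraries.

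The smallest adjusted p was that of Cdh9 in MGE interneurons. WT libraries lay between 467 and 733 CPM with a median of 605.5 CPM, and Het 1 to Het 4 at 366, 291, 343 and 558 CPM. Het 1 to Het 3 were below every WT library, and Het 4 lay within the WT range. The log2 difference was -0.62 ± 0.13 (SE, adjusted p = 0.058, edgeR), and DESeq2 gave -0.63 ± 0.15 (adjusted p = 0.0155). Without Het 4 edgeR gave -0.85 ± 0.12 (adjusted p = 0.000891). The estimate lay between -0.61 and -0.85 in each alternative that called it.

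A similar order of libraries was also seen in upper-layer neurons. Of 80 pairs of member and neuron class, Het 1 to Het 3 were all outside the WT range in 6, with Het 4 inside it in 3 of these. The share of all genes with this order was not counted, so this count is no result about the members. The members below were measured in the same nuclei of the same libraries, so they do not replicate one another. For Cdh13 WT libraries lay between 949 and 1275 CPM with a median of 1072 CPM, and Het 1 to Het 4 at 792, 533, 591 and 1186 CPM. Het 1 to Het 3 again fell below all WT libraries while Het 4 was inside their range (log2 difference -0.50 ± 0.15, adjusted p = 0.355, edgeR). For Cdh7 WT libraries lay between 10.4 and 45.4 CPM with a median of 21.9 CPM, and Het 1 to Het 4 at 6.88, 7.98, 7.11 and 28.0 CPM (-0.99 ± 0.35, adjusted p = 0.422, edgeR). These Cdh7 levels were low and rested on 42, 31, 25 and 61 UMIs in Het 1 to Het 4. Astroglia of the same Het libraries held 9.61, 17.0, 24.6 and 18.9 CPM of Cdh7. Cdh9 had WT libraries between 33.6 and 64.0 CPM, median 54.9 CPM, and Het 1 to Het 4 at 29.7, 23.2, 29.0 and 71.6 CPM (-0.49, adjusted p = 0.546, edgeR). Its level in astroglia of Het 1 to Het 4 was 22.0, 20.7, 53.9 and 16.5 CPM. Cdh10 had WT libraries between 784 and 999 CPM and Het 1 to Het 4 at 705, 669.5, 643 and 1028 CPM (-0.23, adjusted p = 0.529, edgeR). For these last members Het 4 stood above every WT library, and Het 1 to Het 3 below.

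Cdh20 went the other way in upper-layer neurons, with WT libraries between 91.2 and 153 CPM, median 106 CPM, and Het 1 to Het 4 at 133, 221, 170 and 98.2 CPM. Het 2 and Het 3 were above the WT range, and Het 1 and Het 4 inside it (0.47 ± 0.17, adjusted p = 0.435, edgeR). In layer 6, where the level was low, its log2 difference was 0.98 ± 0.35 (adjusted p = 0.434, edgeR). Het 4 was the only female Het library, so that its sex and the animal cannot be told apart. Upper-layer neurons made up 11.29% of its kept nuclei, against 15.05% to 23.48% in Het 1 to Het 3. Layer 6 neurons made up 7.80%, against 3.15% to 4.93%. In WT libraries upper-layer neurons made up 9.97% to 23.9% and layer 6 neurons 4.07% to 12.95%, so Het 4 lay inside both WT ranges. The part of these shares was not tested. In upper-layer neurons WT 6 to WT 8, the female WT libraries, held 1275, 979 and 1047 CPM of Cdh13, and the male WT libraries 949 to 1229 CPM. Without Het 4, edgeR called 6 pairs of member and class, Cdh7 (-1.55), Cdh9 (-0.88), Cdh10 (-0.41) and Cdh13 (-0.77) in upper-layer neurons, Cdh20 (1.37) in layer 6 and Cdh9 in MGE interneurons. In the same fits 0.286% of all genes were called over the 15 classes. Without Het 1, edgeR called Cdh18 in MGE interneurons and Cdh12 in D2 (0.0513% of all genes), without WT 1 Cdh9 in MGE interneurons and Cdh12 in D2 (0.022% of all genes), and without WT 5 Cdh9 in MGE interneurons (0.0198% of all genes).

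Of the 113 tested pairs, 1 had WT and Het libraries that did not overlap, Cdh11 in D1. Over all genes tested in the 15 classes this held for 0.617%, and in D1 for 0.771%, so this count is no result about the members. For Cdh11 in D1 WT libraries lay between 460 and 634 CPM with a median of 476 CPM. Het 1 to Het 4 lay at 416, 383, 270 and 422 CPM. All 4 Het libraries were below all 7 WT libraries used (-0.46 ± 0.12, adjusted p = 0.178, edgeR). For Cdh12 in D2 WT libraries lay between 301 and 415 CPM with a median of 397 CPM, and Het 1 to Het 4 at 314, 245.5, 184.5 and 227 CPM. Only Het 1 was inside the WT range (-0.61 ± 0.14, adjusted p = 0.199, edgeR). In D2, 8 of 9 tested members were lower in Het libraries, with Cdh13 the exception (0.26 ± 0.12, adjusted p = 0.841, edgeR). None of them was called by edgeR, and the share of all genes lower in D2 was not counted.

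Cdh18 differed in sign between classes. In MGE interneurons WT libraries lay between 101 and 262 CPM with a median of 197 CPM, and Het 1 to Het 4 at 186, 330.3, 377 and 300.7 CPM. Het 1 was inside the WT range and the other 3 were above it (0.66 ± 0.18, adjusted p = 0.178, edgeR). In Cajal-Retzius neurons it was higher (0.67 ± 0.18, adjusted p = 0.966, edgeR) and in CGE interneurons lower in Het libraries (-0.73 ± 0.32, adjusted p = 0.884, edgeR), with overlap in both. Cdh7 in MGE interneurons lay between 85.7 and 187 CPM in WT, median 126 CPM, and at 93.8, 94.2, 77.4 and 83.7 CPM in Het 1 to Het 4. Het 3 and Het 4 were below the WT range and the other pair inside its lower end (-0.58 ± 0.16, adjusted p = 0.178, edgeR).

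Over all nuclei of a library, edgeR called 0 of 10 members (0% of all genes tested). DESeq2 also called 0, while it called 0.115% of all genes. Of the 10, chosen with earlier results known, 4 had an unadjusted p under 0.05 by edgeR, against 9.87% of all genes. These were Cdh13 (-0.32 ± 0.08), Cdh10 (-0.29 ± 0.08), Cdh9 (-0.59 ± 0.17) and Cdh20 (0.42 ± 0.14), with adjusted p of 0.38 for the first 3 and 0.389 for Cdh20 (edgeR). Cdh9 lay between 116 and 178 CPM in WT and at 77.7, 81.4, 103 and 150.2 CPM in Het 1 to Het 4. Het 1 to Het 3 were below all WT libraries, with Het 4 inside their range. Without Het 4, edgeR called Cdh9 (-0.82 ± 0.14) and Cdh13 (-0.44 ± 0.07), where 0.172% of all genes were called. Over all nuclei, fewer cells of a type and less RNA per cell cannot be told apart. Within layer 6 neurons Cdh9 lay at 450, 379, 477 and 474 CPM in Het 1 to Het 4, inside the WT range of 363 to 580 CPM. Layer 6 neurons, 1 of the 2 classes with most Cdh9, made up 4.07% to 12.9% of kept nuclei in WT and 3.15% to 7.80% in Het libraries, and MGE interneurons 3.40% to 5.48% and 3.39% to 4.03%, and the part of these shares in the result was not tested.

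**Figure D4:**
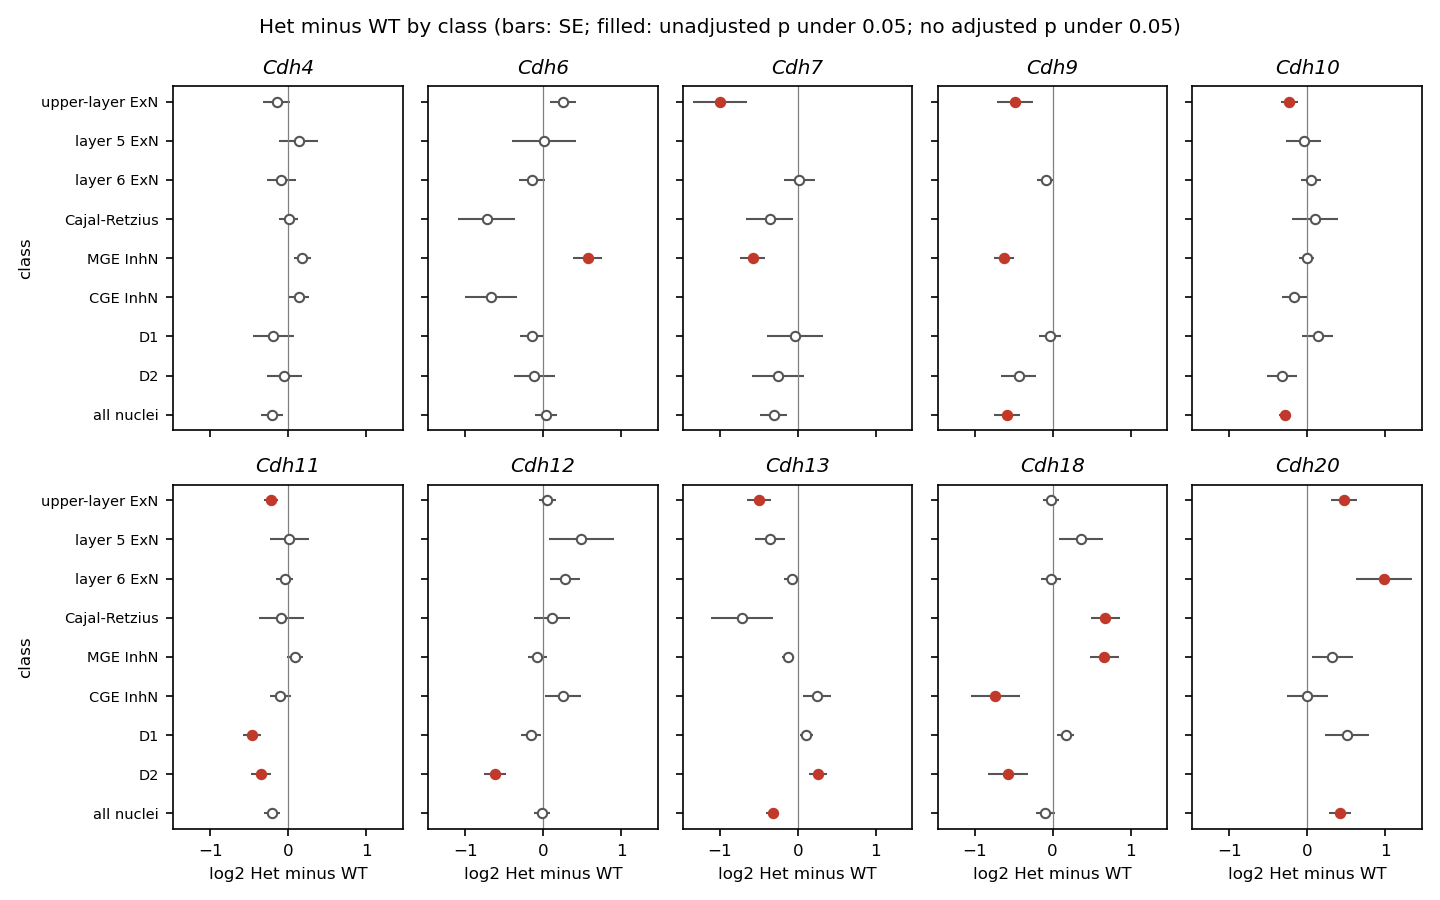
Log2 difference Het minus WT (x axis, bars SE) of each cadherin in each neuron class and over all nuclei (y axis), filled where the unadjusted p was under 0.05. By edgeR no value had an adjusted p under 0.05, and DESeq2 called Cdh9 in MGE interneurons (adjusted p = 0.0155). Cdh9 lies at -0.62 in MGE interneurons, Cdh12 at -0.61 in D2, and Cdh18 on both sides of 0.

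Cdh8, another type II cadherin, showed the same order of libraries in upper-layer neurons, with WT between 1059 and 1173 CPM and Het 1 to Het 4 at 869, 842, 836 and 1088 CPM (-0.30 ± 0.07, adjusted p = 0.295, edgeR). In D2 it lay between 2136 and 2884 CPM in WT and between 1533 and 1831 CPM in Het libraries, without overlap (-0.57 ± 0.11, adjusted p = 0.0599, edgeR). In 232 tests over the 15 classes of the other type I and type II cadherins, catenins, nectins and delta protocadherins, edgeR called 0 between WT and Het, and 34 (14.7%, against 6.58% of all genes) had an unadjusted p under 0.05. DESeq2 called 3, all of them Cdh8 (in upper-layer neurons, D2 and mural nuclei), where it called 0.059% of all genes. The lists were chosen with earlier results of these data known, so these counts are a description.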

How the data were processed

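Single-nucleus RNA sequencing libraries of 12 P1 mouse forebrains (8 WT, 4 Het) were analysed. The authors deposited expected counts, that is, UMI counts per gene and nucleus with UMIs of ambiguous origin split over their genes (6.58% to 6.88% of entries per library were not whole). Counting was with the ScaleRna workflow. The submitters' processing notes name mm10 and Seurat 4.3.0. The design had assumed whole counts, so sums over nuclei were rounded to whole numbers. Entries of 0 were dropped. Of 126684 barcodes, 98111 had 800 to 6000 UMIs, 300 to 3000 genes, no more than 1% of UMIs from mitochondria, and log genes over log UMIs of 0.9 or more. The 5% of barcodes per library with the most simulated doublets among their neighbours (6333 in all) were marked, and 94280 nuclei were kept. No free RNA was subtracted.

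Nuclei entered a class by the number of its markers with a UMI and a lead over, or a low number of, markers of competing classes. Some markers of other classes were thus allowed. The layer classes were held to nuclei without general inhibitory markers, but no general excitatory marker was required. The minimum numbers of markers were set after seeing the data. Nuclei in more than 1 gate (156) were left out, as were gates for layer 6b (which carried more layer 6 markers than its own) and choroid plexus (too few). Markers of intermediate progenitors were listed, but no gate was built for them. A library entered a class with at least 10 nuclei, and a class was tested with at least 3 libraries per genotype. Sums were tested by edgeR 4.0.16 in R 4.3.3 (quasi-likelihood, TMM, filterByExpr), with genotype as the only term, or with library and class for class contrasts. SEs are the log2 difference over the square root of F. Adjusted p are over all genes of a fit. Calls needed an adjusted p under 0.05 and a log2 difference of 0.2 (genotype) or 1 (classes). Each library is 1 animal. DESeq2 1.42.0, other size factors, no filter, sex as a covariate, males only, a block on replicate number, other gates and barcodes, and each library left out were alternatives. Scripts were tested on simulated data. Of 55335 gene identifiers, 54587 matched GENCODE M21, and promoter windows came from RefSeq (GRCm38.p6). Named genes were the members, Myt1l, Cdh8, for each member the 2 genes most alike over classes (at least 10 CPM in a class, log2 of mean CPM + 1), and up to 3 genes per adhesion list by p. Members and lists were chosen with earlier results of these data known.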

Additional observations from a re-analysis of the deposited data

Results flagged for a closer look

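In 13 of 180 groups of libraries (a member, a class and a genotype), the highest or lowest library stood far from the rest of its group. Chance would give about 1 in 20 such groups if groups were independent and values normally spread, which was not tested. Of the 13, 5 were values of Het 4. In upper-layer neurons Het 4 lay above the other 3 Het libraries for Cdh7 (28.0 against 6.88 to 7.98 CPM), Cdh9 (71.6 against 23.2 to 29.7 CPM) and Cdh10 (1028 against 643 to 705 CPM). It lay below them for Cdh10 in D2 (108.7 against 134 to 138 CPM) and for Cdh12 over all nuclei (664.5 against 753 to 761 CPM).

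In WT 8, Cdh13 and Cdh6 stood above the other 7 WT libraries in Cajal-Retzius neurons, at 882 against 157 to 373 CPM and 318 against 66.3 to 171 CPM. This library held 32 nuclei of the class (30 to 59 in the other WT libraries), and the part of that in the values was not tested. WT 8 was also highest for Cdh7 in upper-layer neurons (45.4 against 10.4 to 22.7 CPM) and lowest for Cdh10 in CGE interneurons (360.1 against 629 to 792 CPM). WT 2 was highest for Cdh10 in layer 6 (659 against 340.4 to 469 CPM).

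In MGE interneurons Het 3 was lowest for Cdh4 (145 against 223 to 236 CPM) and highest for Cdh10 (446 against 318.5 to 335 CPM). In Cajal-Retzius neurons Cdh20 had 10.4 CPM in Het 3, which rests on 2 UMIs in 72 nuclei, and 0 UMIs in the other 3 Het libraries, so that any UMI in 1 library alone would have met the criterion.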

How the results depend on the processing

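The comparison of WT with Het within classes gave 0 called pairs of member and class by edgeR and depended on the setting. It gave 1 with DESeq2 (0.059% of all genes) and 1 with sex as a covariate (0.00866%), Cdh9 in MGE interneurons in each, 5 with males only (Cdh7, Cdh9, Cdh13 and Cdh20 in upper-layer neurons and Cdh9 in MGE interneurons, where 0.155% of all genes were called) and 11 with no filter on low counts (0.215% of all genes). With DESeq2 size factors, doublets kept, all deposited barcodes or a stricter gate it gave 0. With 1 library left out it gave 0 to 6, with 2 without WT 1, 1 without WT 5, 2 without Het 1 and 6 without Het 4. Over all nuclei it gave 0 to 2, with 2 without Het 4 and 0 in every other setting run. Males only and the fits without Het 4 both leave out the same library, and the cause was not tested. Libraries with the same sex and number deviated together with correlations of -0.136, 0.101, 0.05 and 0.219, so these numbers were not taken to pair the animals. The replicate block on the paired libraries gave 1 called pair (Cdh9 in MGE interneurons, where 0.0322% of all genes were called), and the same libraries without the block, added after seeing the data, gave 0 (0.015% of all genes).

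Called members in the class contrasts ranged from 15 to 18 in WT and from 19 to 22 in Het libraries with 1 library left out. Among summary values, 69 under an alternative stayed close to the main one and 10, given above, moved. Among values of single members called in the class contrasts, 417 kept their direction and call, 0 changed sign and 7 lost their call, 4 for Cdh12 between D1 and D2 in WT and 3 for Cdh4 there in Het libraries. Alternatives added 22 calls in these contrasts, for 12 combinations of member, contrast and genotype (7 of the 22 were Cdh6 between upper-layer and layer 6 neurons in WT). The stricter gate could be fitted in 13 classes. Small classes limit what could be seen: 37 pairs of member and class had too few counts to test.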
